A study of Mus musculus with 474 samples.

Results

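Nucb2 and Nucb1, the genes of the nucleobindin family, were taken by their symbols from the deposited expression tables of mouse skeletal muscle, and they are 2 of 20612 genes there and 2 of the 18823 genes that passed the filter on low counts. The RNA came from the gastrocnemius muscle of Diversity Outbred (DO) mice, bred from 8 inbred founder strains and kept outbred, and each animal gave 1 library. Every animal carried its own mosaic of founder genomes and was housed on the same high-fat, high-sugar diet (45% fat by the labels), so the tables hold no animals on another diet and no untreated group. The groups were formed by sex and by a number in the titles that was read as the outbred generation (17, 18, 19, 21 or 23), a reading that the study's text covers only in part. There were 48 females and 46 males of generation 17, 45 and 48 of generation 18, 49 and 50 of generation 19, 46 and 47 of generation 21, and 47 and 48 of generation 23. The questions asked of both genes were how high they were expressed in these groups, how widely they varied over animals, and which genes near them and elsewhere in the genome varied with them.

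Nucleobindins are calcium-binding proteins with EF-hand motifs that enter the secretory pathway. Nucb1, also called calnuc, resides mainly in the lumen of the Golgi apparatus, binds G protein alpha subunits and takes part in the response to stress of the endoplasmic reticulum (ER). Nucb2 is the precursor of nesfatin-1, a secreted peptide known for reducing food intake.

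Both genes lie on chromosome 7 of the mouse genome (build GRCm38), with their lower coordinates 71.0 Mb apart. Nucb2 (ENSMUSG00000030659) occupies chr7:116504369-116540584 on the plus strand, and Nucb1 (ENSMUSG00000030824) occupies chr7:45490458-45510406 on the minus strand. Each has 13 exons in its longest coding transcript, which encodes 420 amino acids for Nucb2 and a somewhat longer protein for Nucb1. The exons of Nucb2 covered 2331 bases with a transcript GC content of 41.8%, and those of Nucb1 covered 8212 bases with a GC content of 52.7%. Nucb2 overlapped no annotated gene. Nucb1 lies within the span of Tulp2 on the opposite strand, but the exons of both shared 0 bases.

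The promoters are shown because that of Nucb1 holds an element of the ER stress response and that of Nucb2 does not. The sequences are the 250 bases before the start of each gene in RefSeq (GRCm38.p6), at chr7:116504119-116504368 on the plus strand for Nucb2 and chr7:45510409-45510658 on the minus strand for Nucb1, and both members were matched. Capitals mark the NF-Y core CCAAT, and in Nucb1 also the longer element that ends in it.
Nucb2: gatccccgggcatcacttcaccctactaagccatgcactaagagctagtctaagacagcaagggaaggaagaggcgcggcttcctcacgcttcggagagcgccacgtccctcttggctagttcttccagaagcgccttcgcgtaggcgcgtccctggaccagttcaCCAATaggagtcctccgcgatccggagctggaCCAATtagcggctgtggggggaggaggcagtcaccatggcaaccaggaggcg
Nucb1: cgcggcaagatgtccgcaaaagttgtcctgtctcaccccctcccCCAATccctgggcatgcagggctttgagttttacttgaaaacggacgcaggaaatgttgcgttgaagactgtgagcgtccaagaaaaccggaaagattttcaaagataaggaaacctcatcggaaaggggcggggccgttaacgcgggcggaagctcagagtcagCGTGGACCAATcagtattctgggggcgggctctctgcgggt
The Nucb2 window held 2 CCAAT boxes, at bases 84 to 80 and 52 to 48 before the start. The Nucb1 window held 2 as well, at bases 206 to 202 and 35 to 31, and CCAAT on either strand was found in 33.9% of 32851 such windows. The GC box GGGCGG occurred at 3 places in Nucb1 and in none in Nucb2, against 32.7% of all windows with at least 1. The second CCAAT box of Nucb1 is part of an exact match to the ER stress element II (ATTGGNCCACG, on the opposite strand, bases 41 to 31), a motif that 10 of the 32851 windows held (0.03%). The longer ER stress element (CCAAT and CCACG with 9 bases between them, both strands) was in neither window and in 37 of all windows (0.113%). These matches describe letters in a window, and nothing was measured at these sites.

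Nucb2 was expressed at a middling level and Nucb1 at a high one. Counts of Nucb2 had a lowest value of 136, a median of 296.5 and a highest of 784 per library, and those of Nucb1 were 1338, 3038 and 7062. The total count per library ranged from 35902446 to 165723762, and the counts are of read ends, so that 1 fragment can add up to 2. In CPM, the count scaled to a fixed library total after TMM normalisation, Nucb2 had a lowest value of 2.17, a median of 3.69 and a highest of 7.01, and its mean of 3.77 ± 0.728 (SD over all animals) stood at the 48.0th percentile of the tested genes. Nucb1 had a lowest value of 26.9, a median of 38.3 and a highest of 47.2 CPM, with a mean of 38.1 ± 3.56, at the 84.6th percentile. Per kilobase of exon the level of Nucb2 was 1.62 ± 0.312 and that of Nucb1 4.64 ± 0.434 CPM per kb, and Nucb1 was the higher of both in every library. The ratio of these levels had a median of 2.92 and ran from 1.18 to 5.40. With the longest transcript as the length the median ratio was 4.05.

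**Figure D1:**
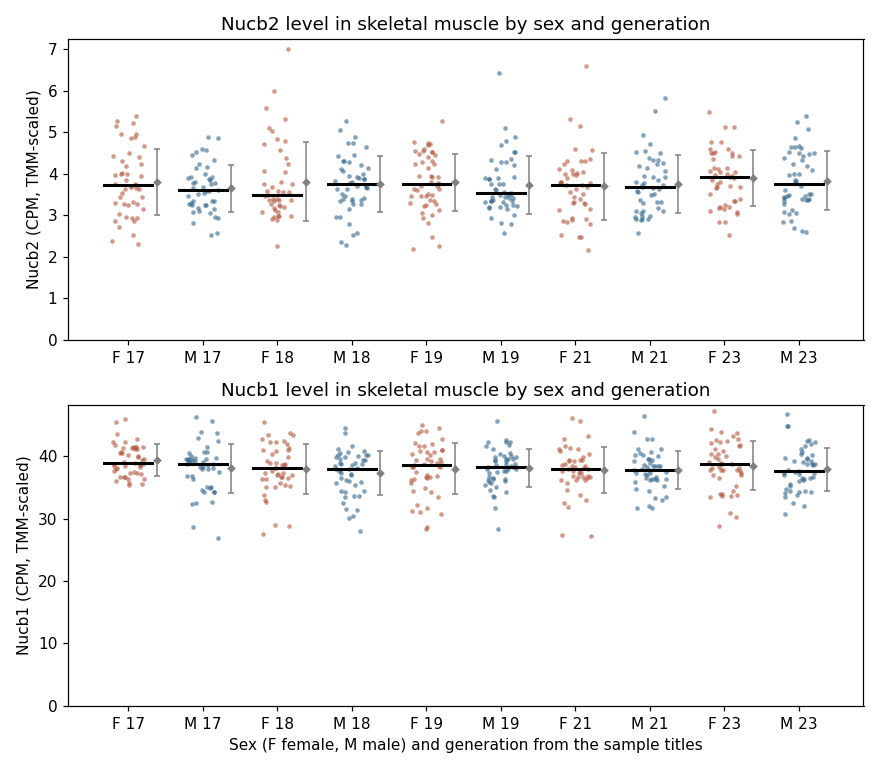
Levels of Nucb2 (top) and Nucb1 (bottom) in TMM-scaled CPM in the 10 groups of sex and generation, with 1 point per animal, a bar at the median, and a diamond with whiskers for the mean ± SD beside each group. All groups share the range from 2.59 to 4.89 CPM for Nucb2 and from 35.4 to 44.6 CPM for Nucb1, and the highest Nucb2 values of 7.01, 6.61 and 6.42 CPM belong to 3 animals of different groups.

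Nucb2 varied over animals to a greater degree than Nucb1. The coefficient of variation of CPM was 19.3% for Nucb2 and 9.36% for Nucb1. The animal at the 95th percentile exceeded that at the 5th by 1.83-fold for Nucb2 (5.06 against 2.77 CPM) and by 1.38-fold for Nucb1 (43.7 against 31.7 CPM). The SD of log2 CPM was 0.27 for Nucb2, where counting error alone would give 0.08 at its mean count if every read end were independent, and 0.14 for Nucb1, where it would give 0.03. The deposited variance-stabilised (VST) scores gave a narrower spread than log2 CPM for both genes, above all for Nucb2. On their scale the residual SD after sex and generation was 0.194 for Nucb2, at the 43.6th percentile of the tested genes. That of Nucb1 was 0.126, at the 5.36th percentile, so few of the tested genes varied less. Most tested genes were scarcer than Nucb1, and no comparison with genes of like level was made. The highest Nucb2 levels were 7.01 CPM in a female of generation 18 (DO156), 6.61 in a female of generation 21 (DO326) and 6.42 in a male of generation 19 (DO289). In DO326 Nucb1 was at 27.4 CPM, the third lowest of all animals.

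Neither gene differed between the sexes beyond the spread over animals. Nucb2 had a lowest value of 2.17, a median of 3.73 and a highest of 7.01 CPM in females, and 2.29, 3.66 and 6.42 CPM in males. Nucb1 had 27.3, 38.5 and 47.2 CPM in females and 26.9, 38.2 and 46.7 CPM in males, and for both genes the sexes overlapped across almost all of their ranges. The log2 difference, male minus female, was -0.022 ± 0.025 (SE; 95% confidence interval -0.07 to 0.03) for Nucb2, with an adjusted p of 0.475 in edgeR's quasi-likelihood test. For Nucb1 it was -0.019 ± 0.013 (-0.04 to 0.006), with an adjusted p of 0.207. Sex was called for neither of these genes and for 55.0% of all genes tested (24.4% higher and 30.6% lower in males). With libraries scaled by total count alone, the Nucb1 difference was -0.051 with an adjusted p of 0.00252, while the median of all genes was -0.046 on that scale and -0.014 with TMM. Sex-linked RNA went against the label in 5 libraries (3 labelled female and 2 male), and without them the differences were -0.020 for Nucb2 and -0.017 for Nucb1. Female libraries were flagged by Xist under 10 CPM or by any count of Ddx3y, so a trace was enough. Male libraries were flagged by Xist over 5 CPM or Ddx3y under 10 CPM.

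The 10 groups had no order of levels that exceeded the spread within them. The highest group mean of Nucb2 was 3.90 ± 0.666 CPM in females of generation 23 (n = 47) and the lowest 3.65 ± 0.570 in males of generation 17 (n = 46). No neighbours in the order of means were more than 0.0647 CPM apart, and the smallest SD within a group was 0.570 CPM. For Nucb1 the highest mean was 39.4 ± 2.51 CPM in females of generation 17 (n = 48) and the lowest 37.3 ± 3.55 in males of generation 18 (n = 48), with gaps of at most 0.948 CPM between neighbours. Females of generation 17 had the smallest SD of Nucb1 of all groups, and their lowest value was 35.4 CPM. Across generations the fitted range was 0.05 (log2) for Nucb2, lowest in 17 and highest in 23, and 0.04 for Nucb1, lowest in 18 and highest in 17. The adjusted p was 0.867 and 0.589 in edgeR, and 7.56% of all genes were called. The sex difference did not pass the test of variation between generations for either gene (edgeR interaction, unadjusted p = 0.92 for Nucb2 and 0.682 for Nucb1, both with an adjusted p of 1), where 0.531% of genes were called. Nor did the spread differ between the sexes past the threshold. The mean absolute deviation of the VST score from the group median was 0.161 in females and 0.142 in males for Nucb2, and 0.0980 and 0.0895 for Nucb1 (limma, adjusted p = 0.403 and 0.667, with 5.55% of all genes called, 1.75% with the wider spread in males and 3.80% in females). Sex and generation took 0.118% and 0.524% of the variance of Nucb2, and 0.326% and 1.18% of that of Nucb1.

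Both genes differed between blocks of library numbers, in opposite directions. The library number in each title was divided into 5 blocks of 91 to 96 consecutive libraries, which may or may not be preparation batches. Nucb1 was lowest in block 1, with a lowest value of 26.9, a median of 36.5 and a highest of 45.4 CPM, against medians of 37.9 to 39.3 CPM in the other blocks. Nucb2 was highest there, with a lowest value of 2.35, a median of 3.91 and a highest of 6.61 CPM, against medians of 3.63 to 3.72 CPM. All blocks overlapped for both genes. The fitted range between blocks was 0.13 (log2) for Nucb1 (edgeR, adjusted p = 9.88e-10) and 0.13 for Nucb2 (adjusted p = 0.041), and 47.4% of all genes were called. The Nucb2 call was lost when libraries were scaled by total count alone (range 0.08, adjusted p = 0.482), where that of Nucb1 grew to 0.16. Block took 8.86% of the variance of Nucb1, more than in 90.6% of genes, and 2.57% of that of Nucb2.

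The base composition of the libraries moved with Nucb1. The library GC content, the mean transcript GC percentage weighted by the counts of each library without both members, ran from 48.8% to 51.4%, with a median of 50.7%. Its correlation over animals with Nucb1, after sex and generation, was r = 0.639 and rho = 0.499 (permutation p = 1e-05, the smallest that 100000 permutations can give, adjusted p = 5e-05 over 20 relations). Without the 2 animals farthest from the median of Nucb1 it was r = 0.628. A group of 68 libraries had a GC content of at most 50.28%, under a limit set after these values were seen. In them the median of Nucb1 was 32.6 CPM, against 38.7 CPM in the others, and r was 0.476 within the 68 and 0.301 within the others. Within the blocks r ranged from 0.298 to 0.712. For Nucb2 the relation was weaker and negative, at r = -0.197 (rho = -0.125, adjusted p = 8.57e-05, and r = -0.168 without the 2 farthest animals), and from -0.322 to 0.0607 within blocks. GC content took 40.1% of the variance of Nucb1 and 3.85% of that of Nucb2, against 2.24% for the median gene. Counts of genes called with Nucb1 are therefore given below also with library GC content as a covariate, a choice made after seeing the data. Every gene other than the 2 members and the mitochondrially encoded genes enters this GC content by its count, so abundant muscle genes help form the covariate.

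**Figure D2:**
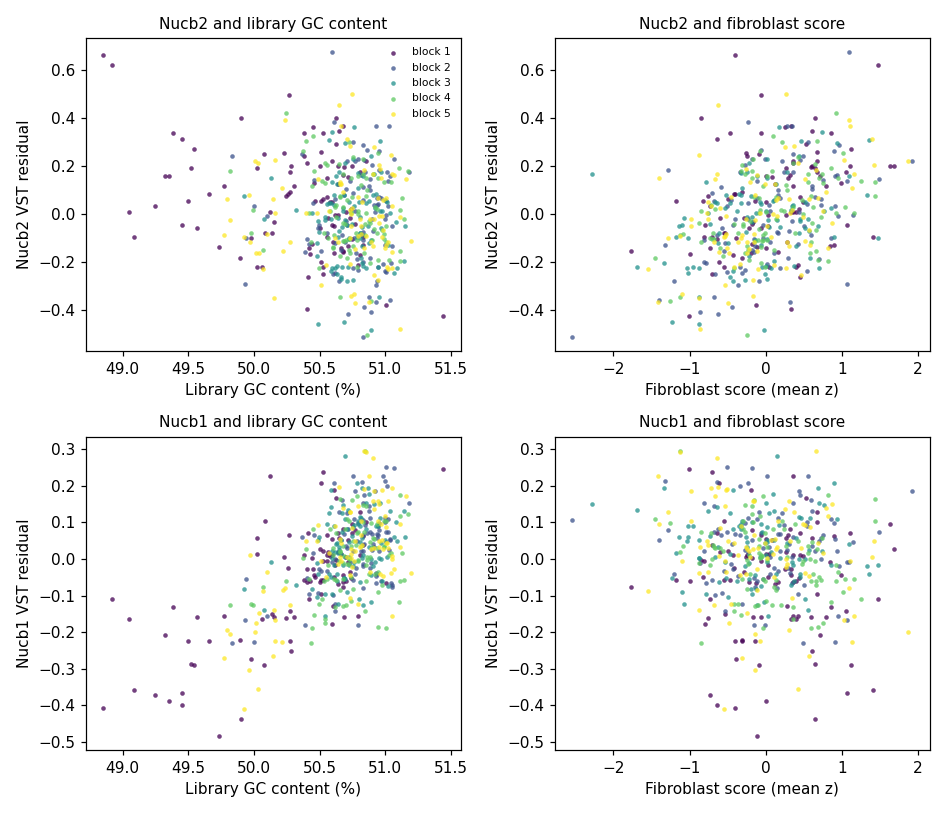
VST residuals of Nucb2 (top) and Nucb1 (bottom) after sex and generation, against library GC content in percent (left) and the mean z-score of 10 fibroblast markers (right), with 1 point per animal coloured by library block. Nucb1 is lowest in the libraries of lowest GC content (r = 0.639 over all animals) and Nucb2 rises with the fibroblast score (r = 0.415).

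Nucb2 and Nucb1 were not shown to vary together. Over all animals their VST residuals gave r = -0.085 (permutation p = 0.0634) and rho = -0.033 (p = 0.477), and r = -0.063 without the 2 animals farthest from the median of Nucb2. Within sexes, generations and blocks, 12 relations in all, r ranged from -0.258 in generation 21 (unadjusted p = 0.0129, adjusted p = 0.155) to 0.163 in block 2 (adjusted p = 0.269), and no adjusted p was under 0.155. Without the 5 libraries whose sex-linked RNA went against their label r was -0.091 (permutation p = 0.0495). With library GC content as covariate r was 0.0534 (p = 0.249), and without the 68 libraries of low GC content it was 0.0178 (p = 0.717), so the sign of this small value depended on those libraries.

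**Figure D3:**
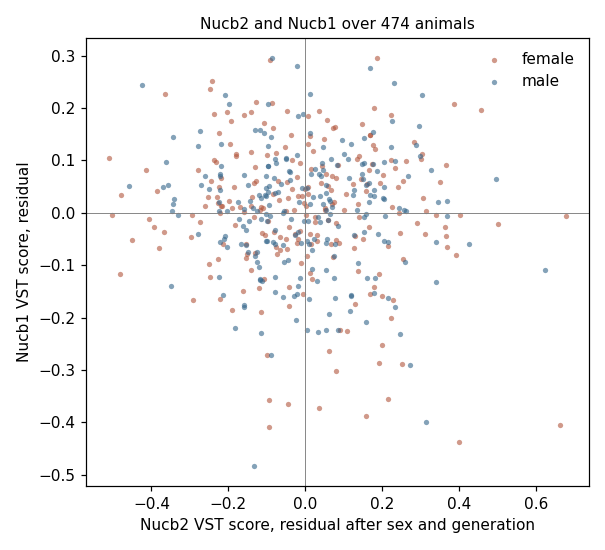
VST residual of Nucb1 against that of Nucb2 after sex and generation, with 1 point per animal coloured by sex. The cloud has no clear slope (r = -0.085), and the 3 animals of highest Nucb2 sit at or below the Nucb1 mean.

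About 3 in 10 genes varied with Nucb2. A regression of every gene on Nucb2 with sex and generation as covariates (limma) called 5804 of 18822 genes (30.8%), 3319 with a positive (17.6%) and 2485 with a negative slope (13.2%). Among genes more than 4 Mb away or on other chromosomes, the highest correlations were those of Colec12, a scavenger receptor of the collectin family (r = 0.42), Pdia3, an ER disulphide isomerase (0.392), Wipf1, an actin regulator (0.388), Dclk1, a microtubule-associated kinase (0.385), and Col5a2, a fibrillar collagen chain (0.374). For Colec12 rho was 0.387, r was 0.412 without the 2 animals farthest from the median of Nucb2, and within blocks r ran from 0.282 to 0.457 (limma, adjusted p = 3.06e-17). Pdia3 was as even, with r from 0.301 to 0.459 within blocks, 0.424 in females and 0.354 in males (adjusted p = 6.92e-15). The lowest correlations were those of Ipo13, a nuclear import receptor (-0.345), Gsk3a, a glycogen synthase kinase (-0.343), Foxj2, a forkhead factor (-0.336), Pink1, a mitochondrial kinase (-0.335), and Asb10 (-0.329). These correlations lay between -0.43 and -0.068 within blocks. The 3319 genes of positive slope had a median transcript GC content of 46.9% and the 2485 of negative slope one of 54.8%, and with library GC content as covariate 4538 genes (24.1%) were called, 14.8% positive and 9.31% negative, and the medians differed by less than 1 percentage point.

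Cell type markers moved with Nucb2. The mean z-score of 10 fibroblast and fibro-adipogenic progenitor markers had r = 0.415 with Nucb2 (rho = 0.400, permutation p = 1e-05, adjusted p = 5e-05, 0.421 without the 2 farthest animals), and from 0.296 to 0.481 within blocks. The score of macrophage markers had r = 0.329, that of adipocyte markers 0.239, and that of fast fibre markers -0.21 (adjusted p = 5e-05, 5e-05 and 8.57e-05). All 10 of 10 fibroblast markers and 10 of 10 macrophage markers were called with a positive slope, with a median r of 0.291 and 0.255, against a median of 0.00980 over all genes tested, of which 17.6% were positive and 13.2% negative. Col3a1 (0.325) and Dpt (0.318) led the first list and Mrc1 (0.324) and Csf1r (0.277) the second. Of 9 adipocyte markers 7 were called positive, led by Pparg (0.247) and Fabp4 (0.243), and of 10 fast fibre markers 6 were called negative, led by Atp2a1 (-0.248) and Tnni2 (-0.213). Adding the GC covariate left 2 of these 6 negative calls (9.31% of all genes were then negative), with a median r of -0.067 in place of -0.131. No marker of slow fibres or red cells was called (of 8 and 5). In bulk muscle, more cells of a type and more RNA per cell cannot be told apart. The muscle markers themselves were abundant in every library, with at least 41080 CPM of Myh4 and 6809 CPM of Ckm.

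When the scores of 8 cell types were added as covariates, the genes next to Nucb2 took the lead. The calls fell to 1284 (6.82%), 3.64% positive and 3.18% negative, and the scores took 21.1% of the variance of Nucb2, against 7.30% for the median gene. Col5a2 was no longer called (r = 0.0257, adjusted p = 0.802), while Pdia3 had r = 0.271 (adjusted p = 6.5e-06) and Colec12 0.214. Of the 10 genes of highest r under these covariates, 8 lay within 4 Mb of Nucb2, a window that holds 0.324% of the genes. They were 4732496C06Rik (0.38), Plekha7 (0.356), Gm45151 (0.331), Knop1 (0.326), Gm45033 (0.317), Pik3c2a (0.31), Gprc5b (0.257) and Xylt1 (0.255), and the others were Pdia3 and Zc3h7a (0.261). Without the scores only 4732496C06Rik of this window was among the first 10.

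The window of 4 Mb to either side, which the study uses for local effects, held 61 tested genes around Nucb2. Of these 26 (42.6%) were called with Nucb2, 20 positive and 6 negative, against 30.8% of the genes farther away, and the median absolute r was 0.0958 against 0.0706. With the cell type scores 20 (32.8%) were called, against 6.74% of far genes. The largest absolute correlations were those of 4732496C06Rik (0.41), Pde3b, a cyclic nucleotide phosphodiesterase (0.344), Pik3c2a, a lipid kinase (0.332), Plekha7, a protein of adherens junctions (0.33), and Gm45151 (0.326). 4732496C06Rik and Gm45151 are annotated as long non-coding RNAs on the strand of Nucb2, 6280 and 3071 bases past its end. Both were scarce, with a median count of 36 (range 7 to 108) and 10 (range 0 to 42). For 4732496C06Rik r ran from 0.25 to 0.511 within blocks (limma, adjusted p = 2.5e-16). The lowest value in the window was that of Coq7, an enzyme of ubiquinone synthesis (-0.27, adjusted p = 1.72e-07), singled out after its value was seen.

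The genes that varied with Nucb1 were sorted by base composition. The regression on Nucb1 called 10350 of 18822 genes (55.0%), 5428 positive (28.8%) and 4922 negative (26.2%), and the median transcript GC content was 55.2% in the first and 43.2% in the second, against 49.3% over all genes. Far from Nucb1 the highest correlations were those of Gnb2, a G protein beta subunit (0.621), Rab1b, a GTPase of traffic from the ER to the Golgi (0.611), Ncln, a subunit of an ER membrane complex (0.604), Arhgdia, an inhibitor of small GTPases (0.603), and Cic, a transcriptional repressor (0.602). The lowest were those of Ube3a, a ubiquitin ligase (-0.673), Ythdf3, a reader of methylated RNA (-0.662), Cops2, a subunit of the COP9 signalosome (-0.656), Ireb2, an iron regulatory protein (-0.652), and Zfp644 (-0.652). Within blocks r of Gnb2 ran from 0.223 to 0.776 and that of Ube3a from -0.778 to -0.33, and rho was nearer to 0 than r in both (0.519 and -0.514). With library GC content as covariate 2104 genes (11.2%) were called, 5.34% positive and 5.84% negative, Gnb2 had r = 0.289 and Ube3a -0.312, and both stayed past the threshold (limma, adjusted p = 1.77e-07 and 1.7e-08). The genes called were still sorted by base composition under this covariate, with a median transcript GC content of 55.7% in those of positive and 42.5% in those of negative slope. With the marker scores 8924 (47.4%) were called, 24.5% positive and 22.9% negative. Without the 68 libraries of low GC content 3257 genes were called.

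Near Nucb1 the neighbours led once GC content was in the model. The window of 4 Mb held 147 tested genes, of which 93 (63.3%) were called, 74 positive and 19 negative, against 54.9% of far genes. With the GC covariate 48 (32.7%) were called, against 2056 of 18674 far genes, and the median absolute r was 0.0781 against 0.0525. The largest correlations without the covariate were those of Rpl18 (0.583) and Rpl13a (0.559), which encode proteins of the large ribosomal subunit, Scaf1 (0.576), Med25, a Mediator subunit (0.572), and Ftl1, the ferritin light chain (0.552). With it, Ftl1 had r = 0.357, Gm15545 0.32 and Rpl13a 0.31, the 3 highest of all genes tested, and 5 of the first 10 lay in the window, which holds 0.781% of the genes. Scaf1 and Med25 were at 0.151 and 0.16 with the covariate. Rpl18, Rpl13a and Ftl1 have pseudogene copies in the genome, so their counts are less certain. Dhdh, which starts 1652 bases past the end of Nucb1 on the same strand, had a negative correlation, r = -0.292 and -0.274 with the covariate, and was singled out after its value was seen.

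**Figure D4:**
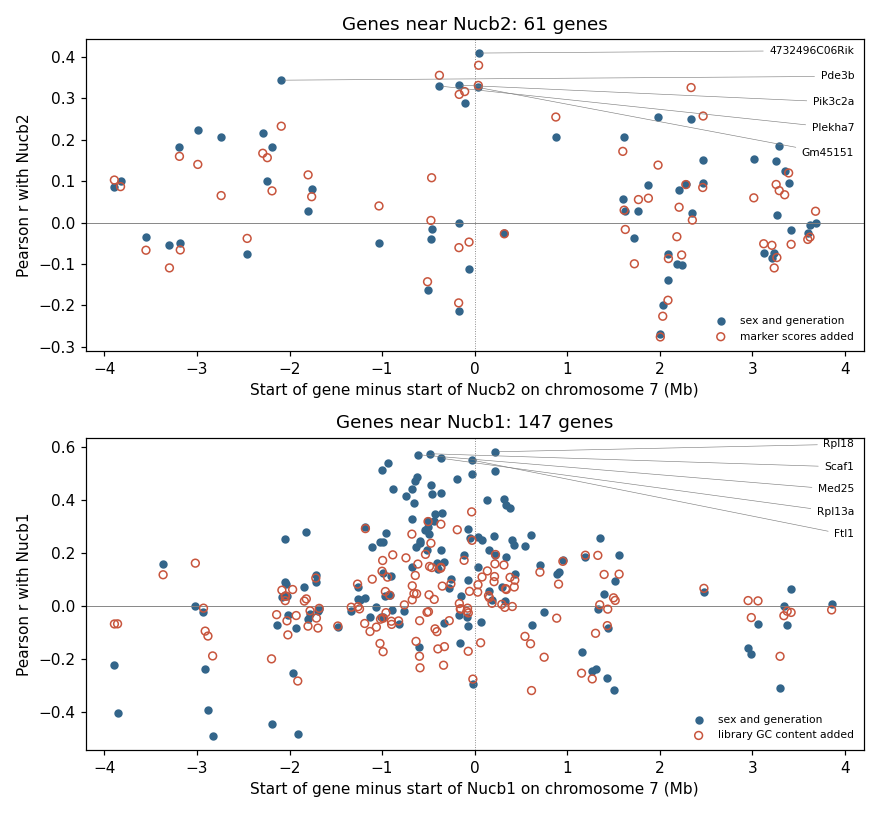
Pearson r with Nucb2 for the 61 genes within 4 Mb (top) and with Nucb1 for the 147 genes within 4 Mb (bottom), by distance between lower coordinates in Mb. Filled points are residuals after sex and generation, open circles add the cell type scores (top) or library GC content (bottom), and the 5 largest values of each panel are named. The highest filled points of both panels sit within 1 Mb of the gene, apart from Pde3b (0.344) for Nucb2.

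A mixed list of ER chaperones and genes of the unfolded protein response had more positive than negative calls with Nucb2 and with Nucb1. Its chaperones were not counted apart from its other genes. In a list of 20 ER chaperones and genes of the unfolded protein response, chosen with earlier results of these data known, 13 were called positive and 2 negative with Nucb2, with a median r of 0.16, where 17.6% of all genes were positive and 13.2% negative. With Nucb1 10 were positive and 5 negative, with a median r of 0.0969, where 28.8% of all genes were positive and 26.2% negative. The medians over all genes were 0.00980 and 0.0115. With library GC content as covariate the counts were 11 positive and 0 negative for Nucb2 and 10 positive and 0 negative for Nucb1, with medians of 0.165 and 0.136, against -0.000744 and 0.00589 over all genes, of which 14.8% were positive with Nucb2 and 5.34% with Nucb1. With the cell type scores 12 were positive and 0 negative with Nucb2, against 3.64% and 3.18% of all genes. Beside Pdia3, Nucb2 went with the disulphide isomerase Pdia4 (0.337), Edem1, which delivers misfolded proteins for degradation (0.272), and the chaperone Hsp90b1 (0.261). Hspa5 (BiP), the main chaperone of the ER lumen, had r = 0.184 with Nucb2. With Nucb1 it had 0.0663 (adjusted p = 0.222), and 0.146 with the GC covariate (adjusted p = 0.0201). With Nucb1 the largest absolute values were those of Dnajb9, a BiP co-chaperone (-0.437), and Creld2, a secreted target of ER stress (0.325). With the GC covariate Dnajb9 was at 0.032 (adjusted p = 0.721) and Creld2 at 0.228 (adjusted p = 7.91e-05). The transcription factor genes Xbp1 (0.0046) and Atf6 (0.0289) were not called with Nucb2, and that of Atf4 was called negative (-0.158, adjusted p = 0.00332). That call was lost with the GC covariate (-0.0966, adjusted p = 0.115) and with the cell type scores (-0.03, adjusted p = 0.763). With Nucb1, Xbp1 (0.163) and Atf4 (0.212) were called positive and Atf6 negative (-0.204), and none of these was called with the GC covariate (0.0921, -0.0199 and -0.00682). Of the 20 tested genes whose window holds the longer ER stress element, 11 were called positive and 1 negative with Nucb2, and 8 and 4 with Nucb1. With the GC covariate these counts were 8 and 1 with Nucb2, and 5 and 0 with Nucb1. Of the 5 tested genes other than Nucb1 whose window holds the ER stress element II, 1 was called positive and 3 negative with Nucb1 (median r -0.443), and 0 and 1 with the GC covariate. Herpud1, the positive one, was called negative with Nucb2 (-0.148) and positive with Nucb1 (0.276), and with the GC covariate neither call remained (-0.0791 and 0.0418).

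The other lists of the secretory pathway are to be read against the 30.8% of all genes called with Nucb2 (6.82% with the cell type scores) and the 55.0% called with Nucb1 (11.2% with the GC covariate). Of 16 other calcium-binding proteins of this pathway 9 were called positive and 1 negative with Nucb2 (median r 0.153), led by Rcn1, a reticulocalbin with EF-hand motifs (0.337), and Fkbp7, a prolyl isomerase with EF-hand motifs (0.3), and with the cell type scores 5 were positive and 0 negative. With Nucb1 there were 6 positive and 6 negative calls, led by the calcium sensor Stim1 (0.37) and by calumenin, Calu (-0.339), which with the GC covariate were at 0.106 and 0.0266 and not called. The list then had 1 positive and 2 negative calls. Of 12 genes that process prohormones 3 were called in each direction with Nucb2 (0 positive and 2 negative with the cell type scores), and 5 positive and 1 negative with Nucb1 (1 in each direction with the GC covariate). Furin, a proprotein convertase of the trans-Golgi, was negative with Nucb2 (-0.298) and positive with Nucb1 (0.468), and the slopes on both genes differed (limma, adjusted p = 2.52e-32). With the GC covariate these values were -0.23 and 0.142, both still called. Pcsk5 was positive with Nucb2 (0.25), but at 0.0513 with the cell type scores (adjusted p = 0.56). Pcsk7 was positive with Nucb1 (0.325), but at 0.11 with the GC covariate (adjusted p = 0.105). The convertases Pcsk1 and Pcsk2, known for prohormones in endocrine cells, were scarce, with means of 0.37 and 0.0802 CPM, and neither was called with either gene. Of 28 genes of Golgi and vesicle traffic 6 were called positive and 7 negative with Nucb2 (median r 0.000365), led by the coat protein gene Sec24d (0.298) and the receptor gene Kdelr3 (0.255). With the cell type scores 2 were positive and 0 negative, Sec24d was at 0.0812 (adjusted p = 0.295) and Kdelr3 at 0.155 (adjusted p = 0.0221). With Nucb1 13 were positive and 10 negative, led by the coat subunit gene Cope (0.56) and the cargo receptor gene Tmed2 (-0.535), and with the GC covariate 3 were positive and 1 negative. Of 12 genes of reported partners 6 were called positive and 1 negative with Nucb2 (2 and 0 with the cell type scores), and 4 positive and 5 negative with Nucb1 (2 and 0 with the GC covariate). Ccdc88a, which encodes a regulator of G alpha i proteins, had r = 0.308 with Nucb2 and 0.208 with the cell type scores. With Nucb1 it had -0.41, and 0.047 with the GC covariate (adjusted p = 0.567). Gnai1 had 0.28 with Nucb2 and 0.0648 with the cell type scores (adjusted p = 0.431). Gnai2, a G alpha i subunit gene, had 0.465 with Nucb1, and it was among the calls that remained with the GC covariate (0.244, adjusted p = 1.82e-05).

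**Figure D5:**
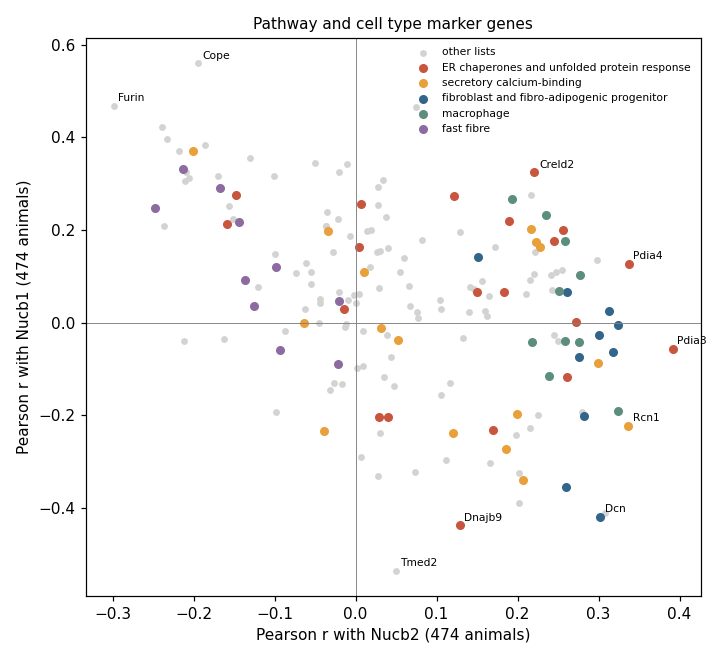
Pearson r with Nucb1 against r with Nucb2 over all animals for each tested gene of the pathway and cell type marker lists, with 5 lists in colour. Fibroblast and macrophage markers lie to the right (r with Nucb2 up to 0.325), and fast fibre markers lie to the left of 0, with Tnni2 at -0.213 and 0.331.

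The marker lists were set against Nucb1 in the same way, where 28.8% of all genes were called positive and 26.2% negative (5.34% and 5.84% with the GC covariate). Of 10 fibroblast markers 1 was called positive and 3 negative, led by Dcn (-0.419) and Lum (-0.355), and of 10 fast fibre markers 5 were positive and 0 negative, led by Tnni2 (0.331) and Tnnc2 (0.29). With the GC covariate Dcn was at -0.2, Lum at -0.117 (adjusted p = 0.0768) and Tnni2 at -0.00338, and 0 of the fast fibre markers were positive and 6 negative, so the direction for this list turned with the covariate. Abundant fast fibre genes help form this covariate by their own counts, so that turn cannot be read as a trait of the list.

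The remaining marker lists are given beside the 30.8% of all genes called with Nucb2 and the 55.0% called with Nucb1, and many of their shares are close to these. Under the GC covariate the shares of all genes were 24.1% (9.31% negative) and 11.2%. Of 6 genes of skeletal muscle 4 were called negative with Nucb2 (median r -0.167), led by desmin, Des (-0.24), and Acta1 (-0.211). Under the GC covariate 2 of the 6 were called negative, and Acta1 was not among them (-0.114, adjusted p = 0.0603). With Nucb1 3 were called positive and 1 negative, led by Des (0.422) and Ckm (0.325), and with the GC covariate 0 and 3. Slow fibre genes gave 4 positive calls of 8 with Nucb1, led by Tnni1 (0.148) and Myl3 (0.129), and none with the GC covariate. Their largest absolute values with Nucb2, neither called, were those of Tnni1 (-0.0996) and Tnnt1 (-0.073). Of 10 endothelial genes 1 was called in each direction with Nucb2, Pecam1 (0.215) and Egfl7 (-0.13), of which Egfl7 was not called with the GC covariate (-0.0509, adjusted p = 0.464). The same list had 5 positive and 1 negative with Nucb1, led by Egfl7 (0.356) and Cldn5 (0.238), and 1 and 0 with the GC covariate. Of 8 mural genes 1 was called with Nucb2, Rgs5 (0.166), with Tagln next (0.0372, not called), and the call of Rgs5 was lost with the GC covariate (0.0804, adjusted p = 0.203). The same list had 6 positive and 2 negative with Nucb1, led by Rgs5 (-0.303) and Cspg4 (0.292). With the GC covariate 0 were positive and 1 negative, and Rgs5 was at 0.0175. Of 8 Schwann cell genes 3 were positive with Nucb2, led by Pmp22 (0.156) and S100b (0.142), and 5 positive and 1 negative with Nucb1, led by Sox10 (0.342) and Mbp (0.179), and 1 and 0 with the GC covariate. Of 6 satellite cell genes 1 was positive and 2 negative with each gene, led by Vcam1 (0.245) and Cdh15 (-0.206) for Nucb2 and by Cdh15 (0.313) and Chodl (-0.296) for Nucb1. None was called with Nucb1 once the GC covariate was added, and Cdh15 was at -0.0359. Of 4 lymphocyte genes tested 3 were positive with Nucb2, led by Cd79a (0.164) and Ms4a1 (0.16), whose rho was 0.0602 and 0.0465, and none with Nucb1, where Cd79a had 0.0568. Red cell genes were not called with either gene, with the largest absolute values at Hbb-bt (0.0286) and Hba-a1 (-0.0134) for Nucb2 and Hbb-bt (0.0741) and Alas2 (0.0631) for Nucb1. Of 9 adipocyte genes 5 were positive with Nucb1, led by Cfd (0.164) and Cidec (0.152), and of 10 macrophage genes 4 were positive and 2 negative, led by C1qc (0.267) and C1qa (0.233). These counts were 3 and 0 for adipocyte genes and 1 and 0 for macrophage genes with the GC covariate.

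The difference between the slopes on both genes, each in units of its own SD, was called for 9914 of 18821 genes (52.7%, of which 28.1% toward Nucb2 and 24.6% toward Nucb1, as shares of all) and for 1608 with the GC covariate. It was called for 9 of 10 fibroblast markers and 7 of 10 macrophage markers, all toward Nucb2, and for 7 of 10 fast fibre markers, all toward Nucb1, in the fit without the GC covariate. The largest differences were found in predicted genes and pseudogenes, whose reads can come from near-identical copies. The slope of Gm28439 was 0.0911 on Nucb2 and -1.46 on Nucb1 (difference 1.55 ± 0.144 SE). Among differences toward Nucb2, Gm42417 came next (0.486), then the mitochondrial gene mt-Atp8 (0.455, with slopes of 0.0457 and -0.409), Gm14440 and Gm28438. Toward Nucb1 the largest were those of Mpc1-ps (-0.645 ± 0.0869), Gm45234, Gm4076, Gm15725 and Rps13-ps2.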

How the data were processed

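The authors isolated RNA from frozen skeletal muscle, selected polyadenylated RNA, and sequenced read pairs whose mates were aligned together as single reads to a transcriptome of the 8 founder strains. The deposited expected counts are estimates per gene by EMASE within GBRS, unnormalised (software versions and use of strand are not given in the sources used here). The deposited score is the authors' DESeq2 variance-stabilising transform. All columns were matched to samples by animal number, and library blocks were formed from the numbers in the titles (up to 96 consecutive numbers, begun again after a gap of over 3).

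Counts were rounded, filtered (edgeR filterByExpr, minimum count 10, 18823 genes kept) and TMM-scaled (factors 0.871 to 1.29). Differences by sex, generation and block were tested by edgeR 4.0.16 quasi-likelihood F-tests. Relations with each member and the spread between the sexes were tested by limma 3.58.1 on the scores with terms for sex and generation. Adjusted p-values are Benjamini-Hochberg values over every gene tested (threshold 0.05). Correlations of single values had 2-sided permutation tests (100000 resamples). Alternatives used DESeq2 1.42.0, limma on scores, total count scaling, other filters, blocks, marker scores, log2 CPM (prior count 2), one sex, or fewer libraries. The library GC content, total count and low-GC alternatives and the test of sex by slope were chosen after seeing the data. Scripts were tested on simulated data. R 4.3.3 was used.

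Named genes were, for each member, the 5 highest and 5 lowest r beyond 4 Mb, the 5 largest absolute r within 4 Mb, the 2 largest per list, and the 5 largest slope differences per side. Other genes named (Coq7, Dhdh, Hspa5, Edem1, Hsp90b1, Xbp1, Atf6, Atf4, Herpud1, Pcsk1, Pcsk2 and those of the test of sex by slope) were chosen after their values were seen, as were genes leading under the added covariates. One gene that this rule names is not reported here. The members and lists were chosen with earlier results of these data known. Starts of 99.5% of genes equalled GENCODE M21, from which exon lengths, GC content and gene types came. Genes that overlap or have near-identical copies are uncertain. Each animal gave 1 library, so p-values measure the spread between animals and libraries together. Kinship, which the study fitted as a random effect in its eQTL mapping, was not in these models. The fits and permutations took the animals as independent.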

Additional observations from a re-analysis of the deposited data

Results flagged for a closer look

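The slope on Nucb2 differed between the sexes for 70 of 18822 genes (limma test of sex by slope, 0.372%). It was more positive in females for 62 and in males for 8, a count by sign and not by steepness. The smallest adjusted p were those of Parp10 (0.00543), Havcr2, Tap1, Tor4a and Trim21 (0.0203 each). For Parp10, r with Nucb2 was 0.370 in females and -0.106 in males, and for Tap1, which encodes a peptide transporter of antigen presentation, 0.355 and -0.0614. Without the 2 animals farthest from the median of Nucb2 (DO156 and DO326) 53 genes were called, 45 of them shared with the 70, and without the 5 libraries whose sex-linked RNA went against their label 72 were called.

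The slope on Nucb1 differed between the sexes for 3 genes (0.0159%), Uty, Gm37158 and Ddx3y, of which Uty and Ddx3y are genes of the Y chromosome. Females lack these, so the test says nothing for them. Both tests of sex by slope were added after the data were seen, and the genes named were those of smallest adjusted p.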

How the results depend on the processing

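Of the comparisons, those of sex, generation, interaction, block and spread kept their side of the threshold under all alternatives run, apart from scaling by total count alone, where the Nucb1 sex difference was -0.051 (adjusted p = 0.00252) and the Nucb2 block range 0.081 (adjusted p = 0.482). Without each generation in turn the sex difference ran from -0.031 to -0.013 for Nucb2 and from -0.024 to -0.011 for Nucb1. With the marker scores added that of Nucb2 changed sign, to 0.012 (edgeR, adjusted p = 0.768). The correlation of both members passed without the 5 libraries against their label (r = -0.091, permutation p = 0.0495), and over all settings r ran from -0.111 to 0.0534. Genes called with Nucb2 numbered 1284 with marker scores and 1756 in males alone, against 4463 in females alone. With library GC content the counts were 2104 for Nucb1 and 1608 for the slope difference, and without the low-GC libraries 3257 and 3414. Near Nucb2, 11 of 23 genes (47.8%) were called within 2 Mb and 16 of 36 (44.4%) without overlapping genes. The full window of 4 Mb had 26 of 61 (42.6%). Near Nucb1, 53 of 86 genes (61.6%) were called without overlapping genes, against 93 of 147 (63.3%) in the full window. With library GC content 48 of 147 (32.7%) were called there, against 2056 of 18674 far genes. The reduced windows hold fewer genes, and the cause of the other changes was not tested. Of the 30 named far and near correlations, Col5a2 with marker scores (r = 0.0257) was the only one that lost its call under 10 alternatives, and none changed sign. No paired analysis was possible because each animal gave 1 library and the groups share no replicate numbers. Counts of 136 to 784 for Nucb2 limit its precision more than those of Nucb1 do.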
